A study of Mus musculus with 5 samples.

Results

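The olfactory bulb (OB) was set against the striatum (STR) over 11595 coding genes of the adult mouse brain that were stable between the libraries of a reference region, the subventricular zone (SVZ). Genes were selected on these FPKM values: a gene was taken when its SVZ samples lay less than 1 log2 unit apart and when it reached 1 FPKM in OB or STR. Of 20340 coding genes in the deposited table, 18502 met the SVZ limit, and 6907 of these were under 1 FPKM in both OB and STR, which left the 11595. Another 1770 coding genes reached 1 FPKM but lay outside the SVZ limit. FPKM is a fragment number corrected for transcript length and for the size of the library. Differences are OB minus STR on log2(FPKM + 1), which understates the folds of low genes, and values given as FPKM are levels.

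The mice were wild-type C57BL/6 adult males, and polyadenylated RNA was sequenced from regions microdissected and frozen. The SVZ had 2 samples, labelled as biological replicates. OB, STR and the dentate gyrus (DG) had 1 sample each, and no source used here says how many animals went into a sample. No mouse carried a transgene or received a treatment, per the labels.

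The olfactory bulb is the first relay of smell. Axons of olfactory sensory neurons enter it wrapped by ensheathing glia and end on mitral and tufted cells, glutamatergic neurons that are surrounded by GABAergic granule and periglomerular interneurons, some of them dopaminergic. New interneurons reach the bulb from the SVZ throughout life as migrating neuroblasts. The striatum consists mostly of GABAergic projection neurons that respond to dopamine through a cAMP cascade built around DARPP-32, with sparse cholinergic and peptide interneurons and many myelinated fibres passing through.

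With 1 sample of each region, no difference between OB and STR has a replicate error, a test or a p-value, and sizes are described without them. The SVZ pair gives the only spread between samples, and the choice of genes limits it to less than 1 unit, so it is no estimate of error. A gene is called OB-high or STR-high when the difference is 2 or more, a factor of 4 on this scale. In whole tissue, fewer cells of a type and less RNA per cell cannot be told apart.

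The labels name no batches, but GC content moved with the differences between SVZ samples and between regions. Among members, the Spearman correlation of transcript GC content with SVZ sample 1 minus SVZ sample 2 was 0.674, and with OB minus STR 0.535, across genes, which are not independent replicates. A difference bridged through the SVZ, OB minus SVZ sample 1 plus SVZ sample 2 minus STR, sets OB against SVZ sample 1 and STR against SVZ sample 2. The labels do not give this pairing, and the opposite pairing would move each value the other way. The bridged difference correlated with GC content at 0.280. It subtracts the SVZ difference, which itself moved with GC content, so a lower correlation does not test the pairing. The SVZ limit thus left a correlation with GC content among the members, and the bridged value is printed after the direct one where both are given. The part of GC content in the counts was not tested beyond the GC adjustment given below.

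The members' median difference was 0.44 directly and 0.17 bridged, so list medians below are to be read against these. The central 90% of members lay between -1.08 and 2.03, and 69.1% differed by less than 1 unit. OB-high genes numbered 605 of 11595 (5.22%) and STR-high genes 174 (1.50%), and counts of called genes in the lists below are to be read against these shares. Bridged, 375 members (3.23%) were OB-high and 173 (1.49%) STR-high. The OB-high share of called genes was 77.7% directly and 68.4% bridged. It was 51.5% after OB and STR were scaled by the median of their ratio, with the other libraries left as they were. It was 49.2% after subtracting the median difference of genes of like GC content. The excess of OB-high over STR-high genes thus depended on how the libraries were put on one scale. Median transcript GC content was 54.2% in OB-high genes, 47.1% in STR-high genes and 49.8% in all members.

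The SVZ limit was the choice that made the set, and its effect is visible in the genes it left out. Among the 1770 genes outside it, 264 (14.9%) were OB-high and 98 (5.54%) STR-high, and bridging brought these to 30 (1.69%) and 34 (1.92%). Over all 13365 coding genes at 1 FPKM the counts were 869 (6.50%) and 272 (2.04%). Tspan18 and Phpt1 were the called genes just inside the limit, with SVZ samples 0.996 and 0.997 apart, and Fam57b and Plxna1 were just outside, at 1.003 and 1.004. Tspan18 had a direct difference of 3.20 and a bridged one of 2.2, and Fam57b, which was left out, had 3.05 and 2.05. At the 1 FPKM floor, Rbp7 (1.00 FPKM in OB) was kept and 9930012K11Rik (0.998 FPKM in OB) was not. At the size of 2 units, Tomm70a and Nkx2-1 were just past it on the STR side, and Wnk4, at 1.995, and Doc2a were just short of it on the OB side.

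In both sets of called genes the SVZ stood near STR. The 605 OB-high genes had a median level of 21.6 FPKM in OB and 2.05 FPKM in STR, and the SVZ samples, at 3.96 and 2.47 FPKM, lay near STR. The 174 STR-high genes had a median of 43.6 FPKM in STR and 4.63 FPKM in OB, and the SVZ samples, at 37.4 and 39 FPKM, again lay near STR. Of the OB-high genes, 21 were listed at 0 in STR and 208 were under 1 FPKM there. None of the 174 STR-high genes was listed at 0 in OB, and 43 were under 1 FPKM there. Differences of 4 units or more were seen in 47 OB-high and 22 STR-high genes.

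**Figure D1:**
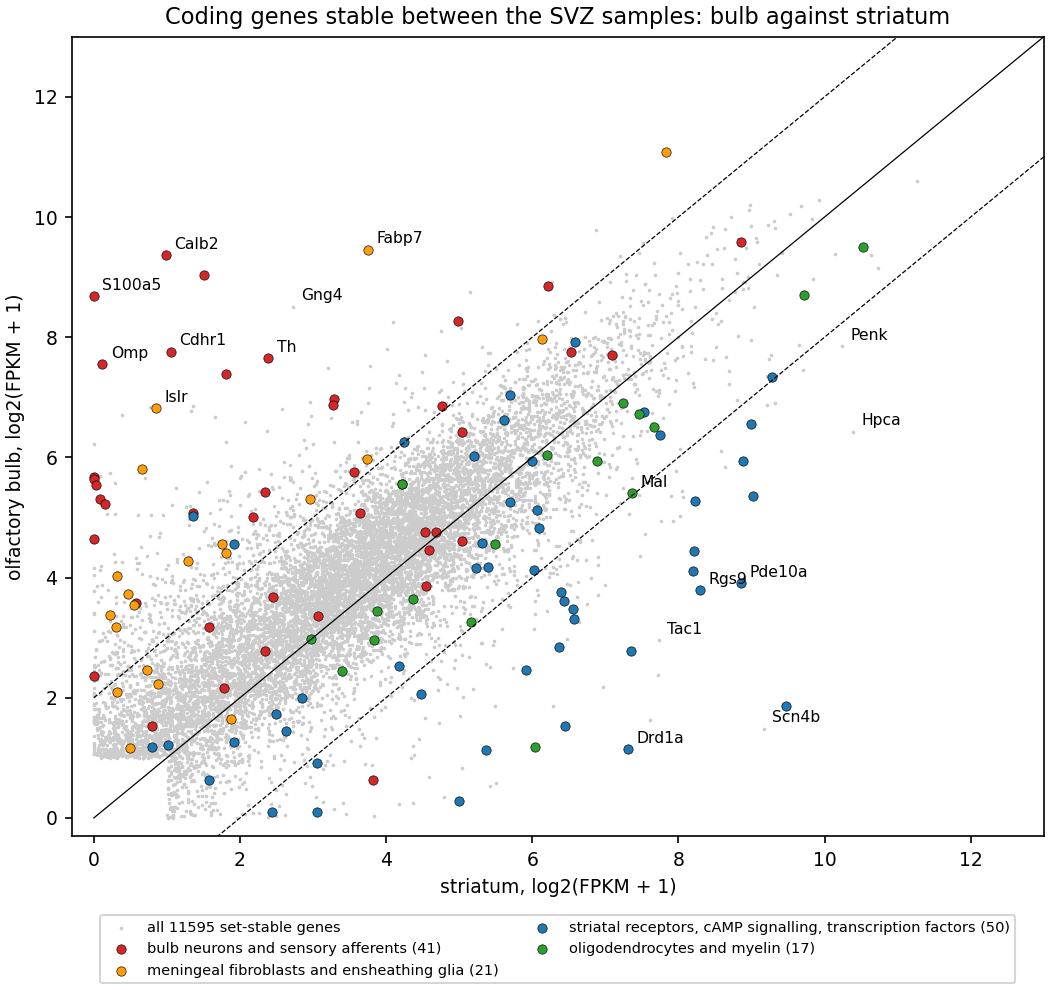
Level of each of the 11595 members in STR (horizontal axis) and OB (vertical axis), both as log2(FPKM + 1). Each point is a gene, the solid line marks equal levels and the dashed lines a difference of 2 units, and colours mark gene lists. The sensory afferent, mitral, tufted and interneuron genes reach the upper left, where S100a5, Calb2 and Omp lie, and the striatal genes reach the lower right, where Scn4b and Drd1a lie.

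Both regions carried their defining genes. Genes of olfactory sensory afferents, whose cell bodies sit in the nasal epithelium outside the bulb, were present in OB by a few transcripts only. S100a5, a calcium-binding protein of these neurons (chr3:90412444-90415702, mm9), stood at 409 FPKM in OB and was listed at 0 in both SVZ samples, in DG and in STR. Omp, the olfactory marker protein of mature sensory neurons (chr7:105270075-105334107), stood at 187 FPKM in OB, 0.0852 in STR, 0.202 and 0.0157 in the SVZ samples and 0.567 in DG, a difference of 7.44 (bridged 7.20). Stoml3, a stomatin-like membrane protein of olfactory cilia, stood at 38.5 FPKM in OB and 0.0615 in STR, with 4.25 and 2.88 in the SVZ samples. OB was the high sample in all 3 genes.

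Most other members of the afferent list did not share this. Of 9 members, 4 were OB-high and 1 STR-high, and the list's median difference was 0.75 (bridged 0.83). The 4th OB-high member, Gng13, a G protein gamma subunit used in chemosensory transduction, had 115 FPKM in OB and 26.1 in STR, and its difference of 2.10 became 1.80 when bridged. Ano2, the calcium-activated chloride channel of olfactory cilia, went the other way, with 0.554 FPKM in OB and 13.1 in STR. Adcy3, the adenylyl cyclase of olfactory cilia, had 21 FPKM in OB and 23 in STR. The cyclic nucleotide channel subunits Cnga2, Cnga4 and Cngb1 and the receptor transport genes Rtp1 and Rtp2 were under 1 FPKM in both regions and are no members; the highest of them in OB was Cnga2, at 0.923 FPKM. Against the 5.22% of all members that were OB-high, 4 of 9 is high, yet the cilium's channel genes were not among them. The list's median fell to the level of all members, or just below, without the SVZ limit and with a pseudocount of 5.

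Mitral and tufted cell genes had the highest median of the lists with 4 or more members. Of 14 members, 11 were OB-high and none STR-high, with a median difference of 3.04 (bridged 3.36). Doc2g, a C2 domain protein, was at 524 FPKM in OB, 1.86 in STR, 3.06 and 2.07 in the SVZ samples and 2.07 in DG. Cdhr1, a protocadherin-like protein of mitral and tufted cells, was at 216 FPKM in OB, 1.08 in STR, 1.84 and 0.581 in the SVZ samples and 8.28 in DG. For both genes OB alone was high, and the differences were 7.52 and 6.70 (bridged 7.12 and 5.85).

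Eomes, Tbx21, Shisa3 and Barhl2 were listed at 0 in STR, so no fold is given for them. Eomes (Tbr2), which specifies bulb projection neurons, was at 50.2 FPKM in OB, and Tbx21 (T-bet), a T-box factor expressed in them, was at 23.8 FPKM. Shisa3, an inhibitor of Wnt and FGF receptor maturation, was at 49 FPKM in OB. Barhl2, a homeobox factor, was at 4.11 FPKM in OB. In SVZ samples these 4 genes stood at 0.336 FPKM or lower, and DG had Eomes at 1.53 and Tbx21 at 0.290.

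The other called members of this list reached STR too. Slc17a6, the vesicular glutamate transporter VGLUT2, had 10.9 FPKM in OB and 0.498 in STR. Cck, the cholecystokinin precursor, was at 309 FPKM in OB, 348 in DG and 30.6 in STR. Olfm1, a secreted olfactomedin, was at 459 FPKM in OB, 1283 in DG and 73.3 in STR. Cck and Olfm1 were thus higher in DG than in OB. Ntng1 (31.4 against 3.51 FPKM) and Nrn1 (42 against 4.08 FPKM), which code for proteins of the cell surface that act in neurite growth, completed the 11. Tbr1, a T-box factor of deep-layer and mitral neurons, was not called directly, at 1.6, and was past the size when bridged, at 2.43. Slc17a7 (VGLUT1), at 453 FPKM in OB and 21.4 in STR, lay outside the SVZ limit.

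Bulb interneuron genes were OB-high in 9 of 18 members, 8 when bridged, and all 18 had a positive difference, against 69.7% of all members. The median difference was 1.82 (bridged 1.71). Calb2, which codes for the calcium buffer calretinin of periglomerular and granule cells (chr8:112666438-112692106), was at 656 FPKM in OB, 0.981 in STR, 4.90 and 3.65 in the SVZ samples and 7.72 in DG, a difference of 8.37 (bridged 8.03). Scgn, the calcium sensor secretagogin, had 36.4 FPKM in OB and 0.111 in STR. Their levels in OB were far above every other library.

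The transcription factors of this lineage were present in the SVZ as well. Dlx1, a homeobox factor of GABAergic precursors, was at 167 FPKM in OB, 54.9 and 39.96 in the SVZ samples, 6.58 in DG and 2.50 in STR (difference 5.59, bridged 5.14). Sp8, a zinc-finger factor of calretinin interneurons, was at 45.4 FPKM in OB, 4.47 and 3.77 in the SVZ samples, 0.171 in DG and 0.0186 in STR. Pax6, which specifies dopaminergic periglomerular cells, was at 32.8 FPKM in OB, 8.27 and 5.46 in the SVZ samples and 1.55 in STR. The order OB, SVZ, STR held for all 3. Tshz1, a factor needed for granule cell migration, was at 125 against 8.75 FPKM, and Dlx5 at 52.9 against 10.8 FPKM. The Dlx5 difference was 2.19 and became 1.65 when bridged. Etv1 and Dlx6 differed by under 1 unit, with 25.9 and 26.2 FPKM in OB and 22.1 and 24.8 in STR. Cpne4, a copine, was at 117 FPKM in OB, 45.6 in DG and 8.63 in STR.

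Th, the rate-limiting enzyme of dopamine synthesis (chr7:150078681-150085871, mm9), was at 200 FPKM in OB, 4.24 in STR, 2.50 and 1.83 in the SVZ samples and 0.311 in DG, a difference of 5.26 (bridged 4.96). Slc6a3, the dopamine transporter, had 6.01 FPKM in OB and 0.0244 in STR. Nr4a2, a nuclear receptor of dopaminergic neurons, was at 14.8 against 3.03 FPKM, a difference of 1.97, and passed the size at 2.08 when bridged. The other steps of monoamine handling did not differ by the size set: Ddc, which makes dopamine from L-DOPA, was at 5.89 against 4.05 FPKM, Slc18a2, the vesicular monoamine transporter, at 3.48 against 2.42, and Maoa at 8.20 against 9.18. Of the list's 10 members, 2 were OB-high and none STR-high.

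Neuropeptide precursors divided between the regions. Of 20 members, 11 were OB-high and 4 STR-high, and bridging gave 12 and 4. Both shares exceed those of all members, 5.22% and 1.50%. Among the OB-high genes, Nmb (neuromedin B) was at 108 FPKM in OB, 1.53 in STR, 6.06 and 2.76 in the SVZ samples and 6.92 in DG. Trh (thyrotropin-releasing hormone) was at 75.1 FPKM in OB, 2.51 in STR, 0.946 and 1.53 in the SVZ samples and was listed at 0 in DG. Cartpt was at 24.7 FPKM in OB, 0.707 in STR, 7.13 and 7.05 in the SVZ samples and 1.35 in DG. OB was the highest library for all 3 genes, and the differences were 5.43, 4.44 and 3.91 (bridged 4.53, 4.82 and 3.90). Vip, Adcyap1, Crh, Tac2, Cort, Gal and Pnoc, the precursors of VIP, PACAP, corticotropin-releasing hormone, neurokinin B, cortistatin, galanin and nociceptin, were also OB-high, at 4.84 to 14.2 FPKM in OB and no more than 1.25 in STR.

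The STR-high precursors were those of the projection neurons and of the somatostatin interneurons. Tac1, the substance P precursor (chr6:7505071-7512973), was at 212 FPKM in STR, 223 and 235 in the SVZ samples, 6.79 in OB and 5.13 in DG, a difference of -4.77 (bridged -4.70). Pdyn (dynorphin) was at 31.2 FPKM in STR, 133 and 116 in the SVZ samples, 21.9 in DG and 2.23 in OB. Penk (enkephalin) was at 1213 FPKM in STR, 1581 and 1684 in the SVZ samples, 230 in OB and 12.4 in DG. For Tac1, Pdyn and Penk both SVZ samples stood above the STR sample. Sst (somatostatin) was at 242 FPKM in STR, 306 and 227 in the SVZ samples, 158 in DG and 29.9 in OB, a difference of -2.98 (bridged -3.41). Npy, which striatal interneurons and ensheathing glia both use, was not called, at 250 FPKM in OB and 69.0 in STR.

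The stretches upstream of 3 of these genes are shown because they hold the same motif although the genes lie on opposite sides: the cAMP response element TGACGTCA, the binding site of CREB, is in the windows of Th and Cartpt, which were OB-high, and of Sst, which was STR-high. Each line gives the 250 bases before the RefSeq start on GRCm38.p6, 5′ to 3′ in the gene's direction, with the motif in capitals. The windows are chr7:142899996-142900245 for Th, chr13:99900684-99900933 for Cartpt and chr16:23890845-23891094 for Sst, all on the minus strand.
Th: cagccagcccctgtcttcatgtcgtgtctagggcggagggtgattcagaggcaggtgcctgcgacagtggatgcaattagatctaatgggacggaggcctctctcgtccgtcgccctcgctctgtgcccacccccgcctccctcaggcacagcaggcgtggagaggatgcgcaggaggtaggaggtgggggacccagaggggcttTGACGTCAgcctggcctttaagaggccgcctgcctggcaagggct
Cartpt: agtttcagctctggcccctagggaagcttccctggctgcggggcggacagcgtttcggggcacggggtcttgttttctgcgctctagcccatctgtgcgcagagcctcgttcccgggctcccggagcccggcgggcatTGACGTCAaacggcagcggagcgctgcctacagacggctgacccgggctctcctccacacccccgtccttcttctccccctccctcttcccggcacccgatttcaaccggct
Sst: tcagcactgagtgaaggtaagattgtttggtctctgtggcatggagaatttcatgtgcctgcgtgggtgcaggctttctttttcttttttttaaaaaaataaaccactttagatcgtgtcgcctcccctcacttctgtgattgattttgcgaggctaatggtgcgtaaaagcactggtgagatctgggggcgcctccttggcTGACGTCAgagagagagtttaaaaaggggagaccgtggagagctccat
The motif lies 45 to 38 bases before the start in Th, 112 to 105 in Cartpt and 48 to 41 in Sst. It reads the same on both strands and was found in 508 of 32851 RefSeq windows of this length (1.55%). A window was found for 9196 members (79.3%), and 286 of these (3.11%) held the motif in any of their windows. The former share counts windows and the latter genes, so the shares are not alike and are not compared. Among members of the peptide and monoamine lists it was also in the window of Scg2, which was not called (320 FPKM in OB and 129 in STR). A match is a description of the letters and says nothing of CREB binding in these samples. Windows were found for 72.4% of OB-high and 71.3% of STR-high genes, so shares of the motif among called genes are not given.

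Neuroblast genes were OB-high in 6 of 13 members, 5 when bridged, with a median of 1.38 (bridged 1.09). Dcx (doublecortin), a microtubule-associated protein of young neurons, was at 37.5 FPKM in OB, 16.3 and 18 in the SVZ samples, 3.90 in DG and 2.54 in STR, a difference of 3.45 (bridged 3.58). Igfbpl1 was at 18 FPKM in OB, 17.4 and 9.15 in the SVZ samples and 0.503 in STR. Cd24a, a surface protein of neuroblasts and ependymal cells, was at 21.6 FPKM in OB, 62.1 and 60.4 in the SVZ samples and 3.27 in STR. The SVZ thus exceeded OB for Cd24a and not for Dcx. Prokr2, the prokineticin receptor that guides neuroblasts into the bulb, was OB-high at 7.93 FPKM, against 1.02 in STR. Tubb3, a neuronal tubulin, had 2.14 directly and 1.49 bridged. The guidance receptors Robo1 and Robo2 were at 10.3 and 31.1 FPKM in OB against 13 and 36.1 in STR. Cycling genes gave 2 members, neither of them called, and Mki67 and Top2a were under 1 FPKM in both regions.

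Genes of olfactory ensheathing glia were OB-high in 4 of 8 members, with a median of 2.23 (bridged 1.72). Fabp7, a lipid-binding protein of ensheathing and radial glia, was at 702 FPKM in OB, 12.5 in STR, 46.9 and 27.4 in the SVZ samples and 56.0 in DG. Frzb, a secreted Wnt antagonist, was at 55.3 FPKM in OB, 0.575 in STR, 0.567 and 0.409 in the SVZ samples and 15.3 in DG. OB was highest in both, and the differences were 5.70 and 5.16 (bridged 4.95 and 5.01). Mybpc1 and Matn2 were also called. Ngfr and Sox10 were not, at 3.68 and 46.2 FPKM in OB against 0.839 and 17.6 in STR.

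Meningeal fibroblast genes moved with the OB-high genes. Of 13 members 10 were OB-high, against 5.22% of all members, and 9 when bridged, against 3.23%. All 13 were higher in OB, against 69.7% of all members, with a median of 2.86 (bridged 2.42). The summed level of the list's 13 members was 2486 FPKM in OB, 252 in STR, 174 and 192 in the SVZ samples and 333 in DG. Ptgds, prostaglandin D synthase of the meninges, made up most of this, at 2178 FPKM in OB, 226 in STR, 141 and 172 in the SVZ samples and 264 in DG. Islr, a secreted leucine-rich repeat protein, had 112 FPKM in OB and 0.801 in STR. Col1a1, Aldh1a2, Slc13a4 and Slc22a6 were at 8.01 to 15.3 FPKM in OB and under 0.5 in STR. How far meninges left on the dissected bulb contributed to OB-high genes was not tested.

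Matrix genes and secreted signals lay on the same side. Of 29 matrix members, 8 were OB-high and none STR-high, against 5.22% and 1.50% of all members. When bridged, 4 were OB-high. The matrix median was 1.39 (bridged 1.07). Smoc1 (42 against 1.72 FPKM), a secreted calcium-binding matrix protein, and Thbs2 (10.9 against 0.234 FPKM), a thrombospondin, had the largest differences, 3.98 and 3.27. Col4a1, Fn1, Mgp and Spon1 dropped below 2 when bridged. Of 40 Wnt, BMP, FGF and IGF members, 12 were OB-high and 1 STR-high, and 9 and 1 when bridged. The shares of all members were 5.22% and 1.50% directly, and 3.23% and 1.49% bridged. Bmp7, a BMP ligand, had 32.8 FPKM in OB and 2.02 in STR, and its antagonist Nog at 17.4 against 1.03. Wnt5a was at 15.6 FPKM in OB against 0.575, and Igf1 at 7.44 against 0.440. Ligand and antagonist were thus both higher in OB. Of the 40 members 6 were lower in OB, and Wnt2 was the 1 past the size, at 0.176 FPKM in OB and 4.39 in STR, with 8.53 and 5.99 in the SVZ samples. The meningeal genes above moved the same way, and their part in these lists was not tested.

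**Figure D2:**
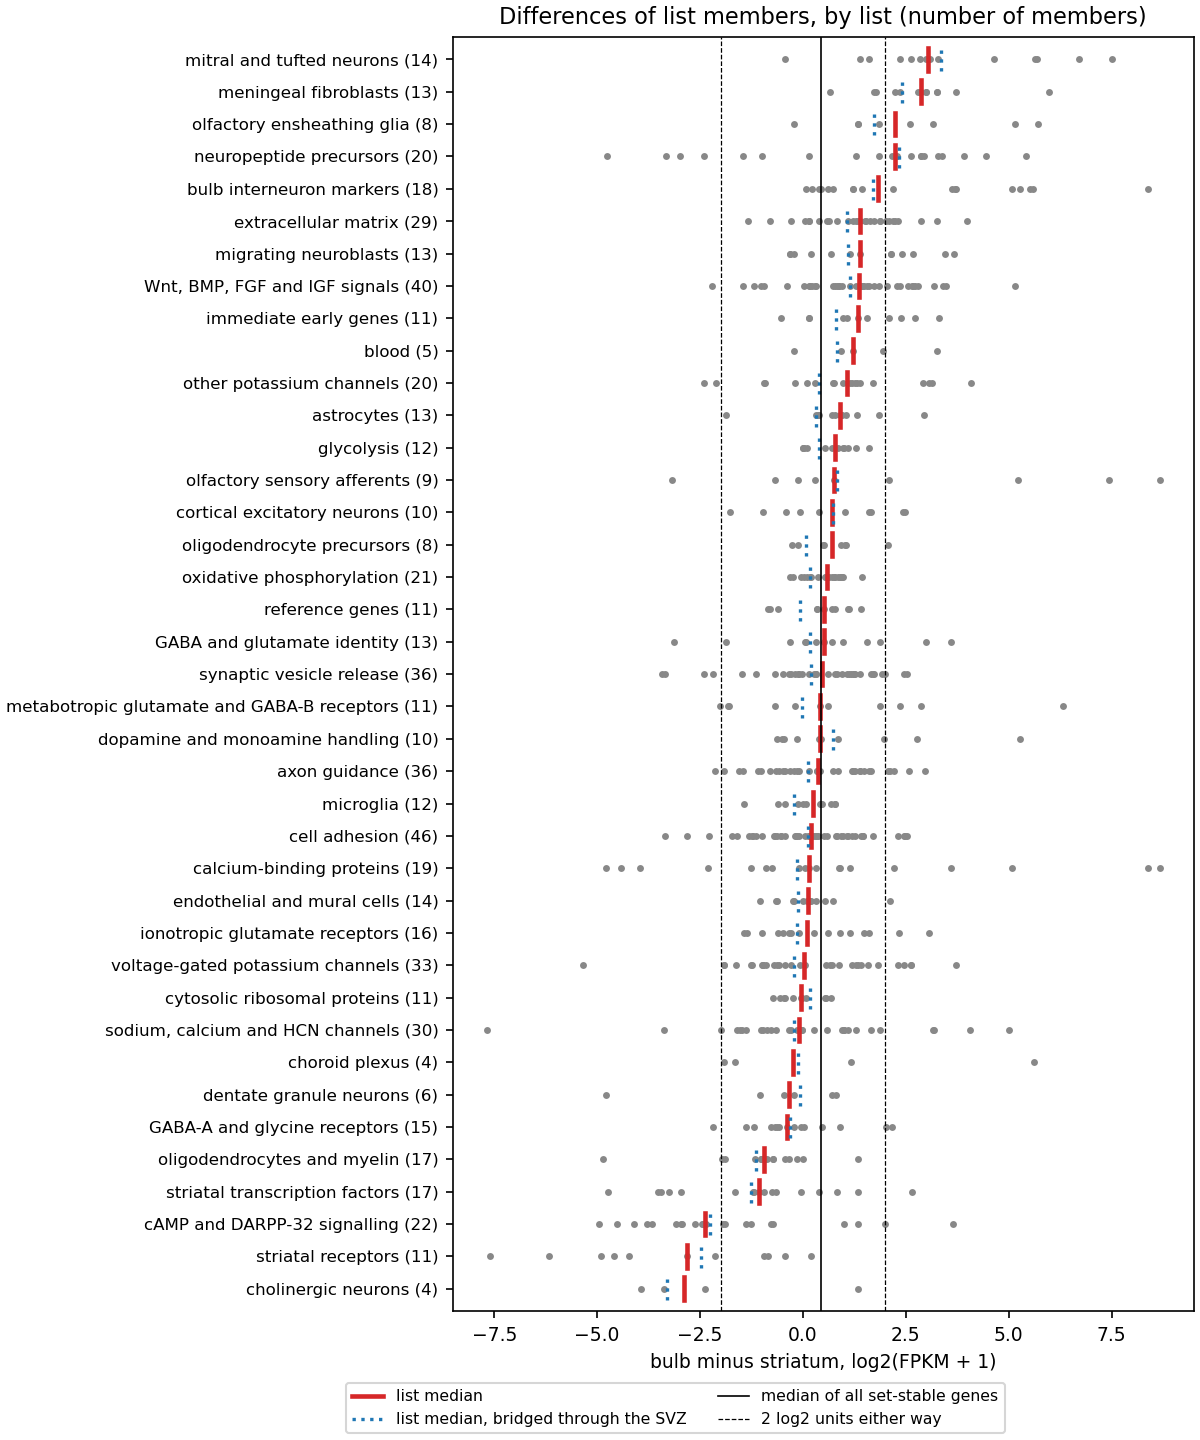
OB minus STR difference on log2(FPKM + 1) for each member, as a grey point, in the lists with 4 or more members. Red bars are list medians, blue dotted bars the medians of bridged differences, the solid line the median of all members (0.44), and the dashed lines 2 units either way. Mitral and tufted, meningeal and ensheathing genes lie at the top, with medians of 3.04, 2.86 and 2.23, and striatal receptors and cholinergic genes at the bottom, at -2.82 and -2.88.

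Genes of striatal projection neurons were prominent among the STR-high genes that the lists cover. The lists held 54 of 174 STR-high genes and 120 of 605 OB-high genes, and the remaining 120 and 485 were in none. Of 11 striatal receptor members 7 were STR-high and none OB-high, against 1.50% of all members, with a median of -2.82 (bridged -2.48). Drd1a, the D1 dopamine receptor (chr13:54146553-54151027), was at 158 FPKM in STR, 108 and 119 in the SVZ samples, 1.204 in OB and 2.13 in DG, a difference of -6.17 (bridged -6.03). The SVZ samples were close to STR and far from OB and DG. Gpr52 and Htr1b, a serotonin receptor, were at 86.1 and 40.1 FPKM in STR and 1.89 and 1.18 in OB. The deposited locus of Gpr52 spans 162149305 to 162723069 on chromosome 1, which is far longer than the gene itself, and the same holds for Omp above, so these positions mark regions that hold other transcripts as well.

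Cnr1, the CB1 cannabinoid receptor, was at 162 FPKM in STR, 21.7 and 35.2 in the SVZ samples, 27.4 in DG and 5.83 in OB, so here the SVZ samples did not approach STR. Oprk1, the kappa opioid receptor for dynorphin, was at 7.27 FPKM in STR and 0.874 in OB. Oprm1, the mu receptor, was near its counterpart, at 1.03 FPKM in STR and 1.31 in OB, and Chrm4, a muscarinic receptor, was at 50.6 and 37.2. Drd2 (151 against 3.75 FPKM) and Adora2a (142 against 6.68 FPKM), the receptors of the indirect pathway, lay outside the SVZ limit and are no members. The set thus holds the D1 receptor and lacks the D2 receptor because of how it was chosen.

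The cAMP and DARPP-32 list held 12 STR-high and 2 OB-high of 22 members, with a median of -2.38 (bridged -2.25). Pde10a, the phosphodiesterase of projection neurons (chr17:8994610-9179513), was at 464 FPKM in STR, 330 and 308 in the SVZ samples, 14 in OB and 19.6 in DG. Rgs9, which speeds the shut-off of G protein signals, was at 314 FPKM in STR, 382 and 236 in the SVZ samples, 12.8 in OB and 12.4 in DG. Gnal, the G protein alpha subunit that couples D1 receptors to adenylyl cyclase and is also used in olfactory cilia, was at 296 FPKM in STR, 255 and 260 in the SVZ samples, 20.6 in OB and 59.2 in DG. The differences were -4.96, -4.51 and -3.78, with STR and SVZ high in each. Arpp19, Rgs4, Ptpn5, Rasd2, Pde1b, Pde7b, Rgs14, Ptpn7 and Rgs2 were the other STR-high members. Rgs2 went from -2.63 to -1.66 when bridged, and Pde2a, not called at -1.37, went to -2.13.

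Within this list 2 adenylyl cyclases were OB-high, and protein kinase A subunits went both ways. Adcy8, a calcium-stimulated cyclase, was at 31.5 FPKM in OB, 1.57 in STR, 1.45 and 1.09 in the SVZ samples and 4.44 in DG, a difference of 3.66 (bridged 3.42). Adcy2 had 75.4 FPKM in OB and 18 in STR, and its 2.01 became 1.44 when bridged. Prkaca and Prkar1b were higher in OB (97.5 and 242 FPKM against 48 and 94.8), and Prkacb and Prkar2b higher in STR (183 and 64.4 FPKM against 107 and 16.5), none of them by the size set. Ppp1r1b (DARPP-32 itself), Adcy5, Gng7 and Rasgrp2 lay outside the SVZ limit, with Ppp1r1b at 940 FPKM in STR and 33.3 in OB.

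**Figure D3:**
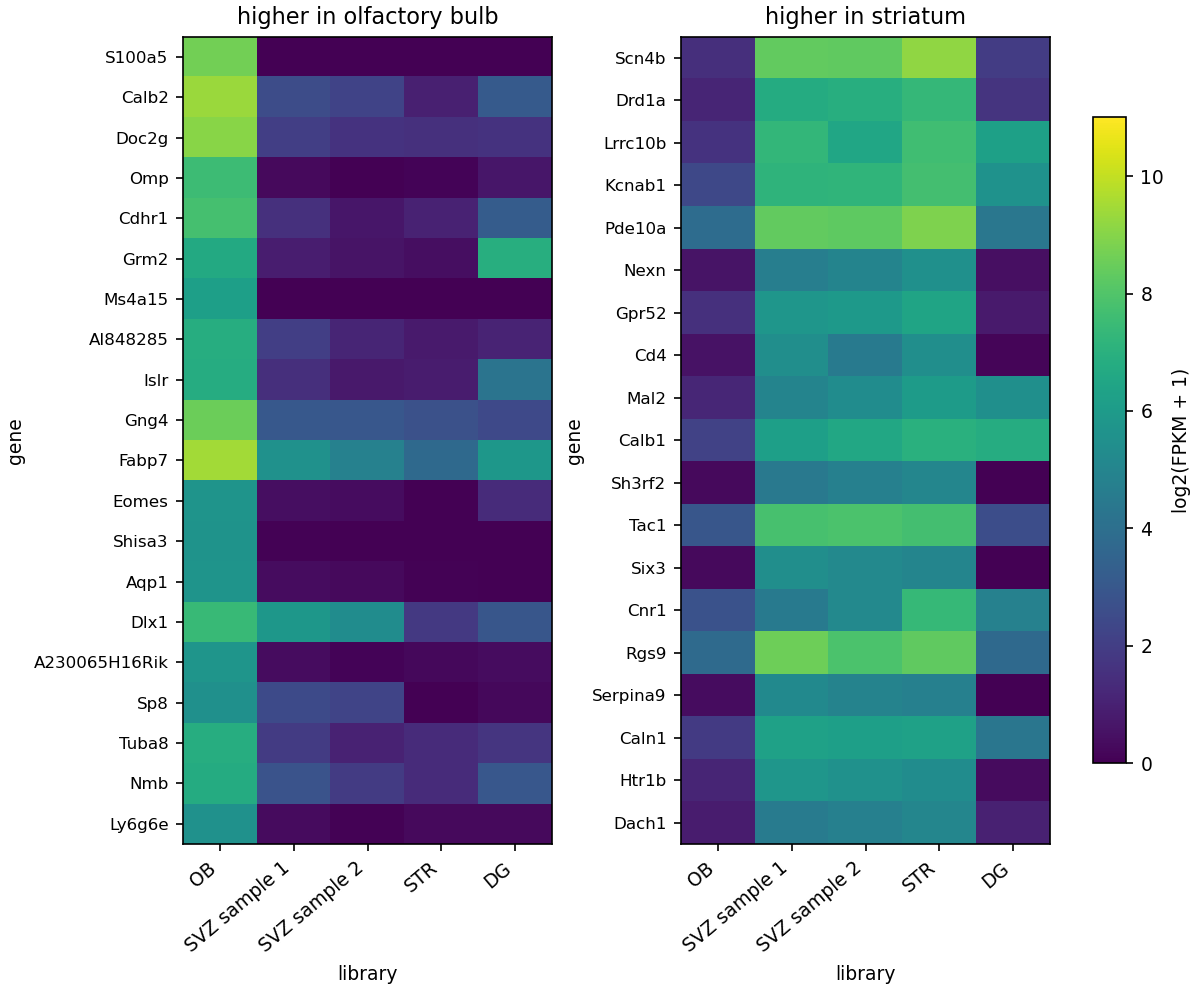
Levels as log2(FPKM + 1) of the OB-high genes (left) and STR-high genes (right) with the largest differences among members at 5 FPKM or more, 1 row per gene, with 1 STR-high gene not shown, and 1 column per library. On the left OB is the brightest column apart from Grm2, which is as bright in DG, and the SVZ shows Dlx1 and Fabp7 and DG shows Fabp7 and Islr at lower levels. On the right both SVZ samples and STR are bright, and Calb1, Lrrc10b, Kcnab1 and Mal2 are among those that also reach DG.

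Striatal transcription factors were STR-high in 5 of 17 members, and 1, Tshz2, was OB-high, with a list median of -1.07 (bridged -1.27). Six3, a homeobox factor of D2 neurons, was at 31 FPKM in STR, 42.7 and 35.7 in the SVZ samples, 0.210 in OB and listed at 0 in DG. Foxp1 was at 81.5 FPKM in STR, 63.6 and 70.6 in the SVZ samples, 6.18 in OB and 7.83 in DG. The retinoid receptors Rarb and Rxrg were at 59.5 and 93.7 FPKM in STR and 4.52 and 8.95 in OB. The differences of these 4 genes ran from -3.25 (Rxrg) to -4.73 (Six3). Isl1, a factor of D1 and cholinergic neurons, was at 7.33 FPKM in STR and 0.0719 in OB. Bcl11b and Foxp2 were not called, at 66.2 and 17.1 FPKM in STR against 33.7 and 4.74 in OB.

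Cholinergic genes were STR-high in 3 of 4 members. Slc5a7, the choline transporter, was at 17.1 FPKM in STR, 5.73 and 7.67 in the SVZ samples and 0.172 in OB. Chat, which makes acetylcholine, was at 9.90 FPKM in STR, 7.89 and 4.08 in the SVZ samples and 0.0432 in OB. Lhx8, the homeobox factor of these neurons, was at 4.23 FPKM in STR and 0.00819 in OB. All 3 were listed at 0 in DG. Slc17a8 (VGLUT3), a glutamate transporter carried by cholinergic interneurons, was at 8.77 FPKM in STR and 0.109 in OB. The differences were -3.95, -3.39, -2.38 and -3.14 in that order.

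Genes for GABA were shared by the regions, both of which are rich in GABAergic neurons. Gad1, which makes GABA, was at 602 FPKM in OB, 202 in STR, 186 and 180 in the SVZ samples and 105 in DG, a difference of 1.57 (bridged 1.52). Gad2 had 100.3 FPKM in OB and 125 in STR. Slc32a1, the vesicular GABA transporter, was at 245 and 125 FPKM. Slc6a11, the glial GABA transporter GAT-3, was OB-high, at 429 FPKM in OB, 34.4 in STR, 42.6 and 22.7 in the SVZ samples and 46.8 in DG, a difference of 3.60 (bridged 2.72). Slc6a13 (GAT-2), a GABA transporter of the meningeal list, was OB-high too, at 18.4 against 1.44 FPKM. The glutamate transporters Slc17a6 and Slc17a8 are the other called members of the GABA and glutamate list.

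Receptor families moved by subunit and not as a whole. Among 15 GABA-A and glycine receptor members, Gabra3 (46.8 against 10.8 FPKM) and Gabra5 (52.5 against 10.8 FPKM) were OB-high and Gabra4 (16.6 against 79.4 FPKM) was STR-high. Gabra4 was at -2.19 directly and -1.82 bridged. Of 11 members of the list of metabotropic and GABA-B receptors with their Homer scaffolds, 3 were OB-high and 1 STR-high. The OB-high receptor was Grm2 alone, beside Homer2 and Homer3. Grm2, a presynaptic glutamate receptor, was at 103 FPKM in OB, 118 in DG, 0.866 and 0.480 in the SVZ samples and 0.312 in STR, which made a difference of 6.31 (bridged 5.98). Grm5 was at 71.4 FPKM in STR and 16.9 in OB, and its -2.02 became -1.58 when bridged. Among the scaffold genes Homer2 had 27.6 FPKM in OB and 2.94 in STR, Homer3 at 18.1 and 2.71, and Homer1, not called, at 32.4 and 116. Homer3 went from 2.37 to 1.66 when bridged. Of 16 ionotropic glutamate receptor members, Grin2d (21.5 against 1.71 FPKM) and Grik1 (8.32 against 0.858 FPKM) were OB-high, and Gria1 and Gria2 were at 202 and 137 FPKM in OB against 131 and 207 in STR. The medians of the ionotropic and metabotropic lists, 0.09 and 0.42, turned to -0.15 and -0.03 when bridged.

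Ion channel genes showed the same exchange within families. Scn4b, an auxiliary subunit of sodium channels (chr9:44947125-44962144), was at 575 FPKM in STR, 330 and 314 in the SVZ samples, 1.80 in OB and 2.86 in DG. Its difference of -7.69 (bridged -7.76) was the lowest of all 11595 members. The other sodium channel members of the list stayed short of the size, with Scn2b nearest at -1.99 (-2.06 bridged).

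Among potassium channels the auxiliary subunits went opposite ways. Kcnab1 was at 209 FPKM in STR, 142 and 147 in the SVZ samples, 47.4 in DG and 4.18 in OB, and Kcnab3 was at 102 FPKM in OB, 6.86 in STR, 3.29 and 4.14 in the SVZ samples and 8.54 in DG. The differences were -5.34 and 3.71 (bridged -5.29 and 3.97). Of all members 5.22% were OB-high and 1.50% STR-high. Of 33 voltage-gated potassium channel members 5 were OB-high and 1 STR-high, and of 20 other potassium channel members 4 and 2. Kcnk12 (32 against 0.935 FPKM), Kcnj6 (16.6 against 0.992 FPKM), Kcnj3 (50.3 against 5.10 FPKM) and Kcnk3 (22.6 against 2.14 FPKM) were the OB-high genes of the latter group, and Kcnk2 and Kcnj2 the STR-high ones. The median of the voltage-gated list was 0.02 and turned to -0.23 when bridged.

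Of 30 sodium, calcium and HCN channel members 4 were OB-high and 2 STR-high, against 5.22% and 1.50% of all members. Cacna1g, a T-type calcium channel, was at 47.4 FPKM in OB, 1.92 in STR and 1.80 and 1.07 in the SVZ samples. Hcn4 and Hcn3, channels of the hyperpolarisation-activated current, were at 18.9 and 31.6 FPKM in OB and 1.19 and 2.66 in STR. Cacng5, which modulates AMPA receptors, had 101 FPKM in OB and 2.15 in STR. These 4 genes kept differences of 2.30 to 4.33 when bridged. Cacna2d3, a calcium channel alpha2delta subunit, was at 98.9 FPKM in STR and 8.61 in OB.

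Calcium-binding proteins divided too. Calb1 (calbindin) was at 124 FPKM in STR, 72.9 and 95.7 in the SVZ samples, 111 in DG and 3.54 in OB, the reverse of its relative Calb2. Hpca (hippocalcin) was at 1346 FPKM in STR, 1215 and 733 in the SVZ samples, 1137 in DG and 85.2 in OB. The differences were -4.78 and -3.97 (bridged -4.39 and -4.69). Of 19 members, 5 were OB-high and 4 STR-high, against 5.22% and 1.50% of all members. Among 36 vesicle release members 2 were OB-high (Syt10 and Rims3) and 4 STR-high (Unc13c, Syt2, Doc2b and Rph3a), near the share of all members for OB-high genes. Bridging left 1 and 5, since Rims3 went from 2.52 to 1.53 and Cplx2 from -1.48 to -2.31. Snap25 and Syt1, core parts of the release machinery, were at 998 and 433 FPKM in OB and 904 and 285 in STR. Cadherins went both ways: Cdh9, Cdh8 and Cdh7 were STR-high, at 19.2, 40.4 and 6.81 FPKM against 0.992, 4.92 and 0.604, and Cdh4 was OB-high, at 31.4 against 4.64 FPKM (1.98 bridged). Cdh3 and Cdh23, outside the list and chosen after their values were seen, were OB-high at 4.05 and 3.93 FPKM. Of 46 adhesion and 36 guidance members, 4 and 5 were OB-high and 3 and 1 STR-high, against 5.22% and 1.50% of all members, and bridging left 2 and 3 OB-high and 3 and 2 STR-high.

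Oligodendrocyte genes were lower in OB by less than the size set. Of 17 members, 16 had a negative difference, against 30.3% of all members, and the median was -0.94 (bridged -1.15). Mbp, a main myelin protein, was at 723 FPKM in OB, 1468 in STR, 1702 and 1301 in the SVZ samples and 449 in DG. Mal, a proteolipid of compact myelin, was at 41.4 FPKM in OB, 164 in STR, 118 and 152 in the SVZ samples and 27.7 in DG. DG was the lowest library for both genes. Sox10, which ensheathing glia also express, was the member with a positive difference, at 46.2 against 17.6 FPKM. Mal2, the only called member of the list, was at 64.6 FPKM in STR and 1.26 in OB; it serves transport in epithelial and neuronal cells and is not a myelin gene like Mal. The precursor genes Pdgfra and Cspg4 were at 9.67 and 5.38 FPKM in OB and 11.8 and 2.39 in STR.

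The remaining cell types were closer to even. Astrocyte members were higher in OB in 12 of 13, against 69.7% of all members, with a median of 0.89 (bridged 0.32). Of the 13, 1, Lcat, was OB-high at 92.5 against 11.2 FPKM. Slc1a2, the main astrocytic glutamate transporter, was the exception, at 163 FPKM in OB and 594 in STR. Microglial genes gave no called member of 12 and endothelial and mural genes 1 of 14 (Cldn5, 2.10 directly and 1.37 bridged), and their medians, 0.24 and 0.13, turned to -0.22 and -0.11 when bridged. Of 5 blood members 4 were higher in OB, against 69.7% of all members, and 1 was lower. Hba-a2 was at 678 FPKM in OB against 175 in STR and Hbb-b1 at 124 against 52.6, neither of them called. The only called member was Cd74, OB-high at 15.3 against 0.699 FPKM (3.26, bridged 3.01). The summed level of the list's 5 members was 821 FPKM in OB, 231 in STR and 181 to 261 in the other libraries. The part of retained blood in other genes was not tested. Among choroid plexus genes, Ttr had 0.95 FPKM in OB and 6.37 in STR, and Aqp1, a water channel also found outside the choroid plexus, was OB-high at 50.7 against 0.0562 FPKM. Cortical excitatory genes gave 2 OB-high of 10 members, Neurod1 and Emx1, at 4.81 and 5.77 FPKM in OB and 32.3 and 24.3 in DG.

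Immediate early genes, switched on soon after a neuron is active, were higher in OB in 10 of 11 members, against 69.7% of all members. Of the 11, 4 were OB-high, against 5.22% of all members, and the list median was 1.35 (bridged 0.80). Fos was at 52.1 FPKM in OB, 4.35 in STR, 30.5 and 19.7 in the SVZ samples and 8.95 in DG, a difference of 3.31 (bridged 2.70). Ier2 had 14.6 FPKM in OB and 1.36 in STR. Fosb and Btg2 were called directly, at 2.40 and 2.10, and not when bridged, at 1.61 and 1.76. Egr1, another such gene, went the other way, at 158 FPKM in OB and 231 in STR. The lists of housekeeping functions gave no called member: 0 of 12 in glycolysis, 0 of 21 in oxidative phosphorylation, 0 of 11 in cytosolic ribosomal proteins and 0 of 11 among reference genes. Their medians were 0.78, 0.60, -0.06 and 0.51, and 0.39, 0.17, 0.17 and -0.06 when bridged. In the ribosomal list 13 of 24 genes lay outside the SVZ limit, so the members are the lesser part of it. Outside these lists, Rpl35a was STR-high (18.6 against 96.7 FPKM, -2.32, bridged -1.71) and the enolase gene Eno3 OB-high (9.79 against 1.67 FPKM, 2.01, bridged 1.29), both chosen after their values were seen. For ribosomal genes, copies elsewhere in the genome make the values uncertain.

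Beyond the lists, some of the largest differences belonged to genes of other kinds. Gng4, a G protein gamma subunit, was at 364 FPKM in OB, 5.61 in STR, 7.13 and 6.93 in the SVZ samples and 4.32 in DG. Ms4a15, a membrane protein, had 73.3 FPKM in OB and listed at 0 in the other 4 libraries. Tuba8, an alpha tubulin, had 115 FPKM in OB and 1.55 in STR. Ly6g6e, A230065H16Rik and AI848285 were at 46.7, 52.5 and 114 FPKM in OB and under 1 FPKM in STR. On the STR side Lrrc10b was at 195 FPKM against 2.09 in OB, with 155 and 89.1 in the SVZ samples. Cd4, known as a T cell coreceptor, was at 42 FPKM in STR, 42.9 and 22 in the SVZ samples, 0.437 in OB and 0.119 in DG. Nexn (an actin-binding protein), Serpina9 (a serpin), Dach1 (a transcription factor), Sh3rf2 and Caln1 were at 26.6 to 76.7 FPKM in STR and 0.201 to 2.63 in OB. No source used here states whether the libraries kept strand. Of the 40 genes with the largest differences, 13, among them Dlx1, Six3, Islr, Grm2 and Kcnab1, overlap a GENCODE gene on the opposite strand, whose reads cannot be told apart from theirs. Another 3 of the 40 (AI848285, A230065H16Rik and Gpr52) were not matched to a GENCODE gene and so were not checked.

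Bridging can move a member by less than 1 unit only, so it could not turn these 40 genes. The 20 OB-high genes had bridged differences of 4.53 to 8.68, and the 20 STR-high genes of -7.76 to -3.91. Of all 605 OB-high genes 358 were still past 2 units when bridged and 247 were not, and of 174 STR-high genes 135 were and 39 were not. The lowest bridged sizes were 1.03 and 1.19, as they must exceed 1 unit because the SVZ limit caps the change. SVZ sample 1 was above SVZ sample 2 in 508 OB-high and 66 STR-high genes.

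**Figure D4:**
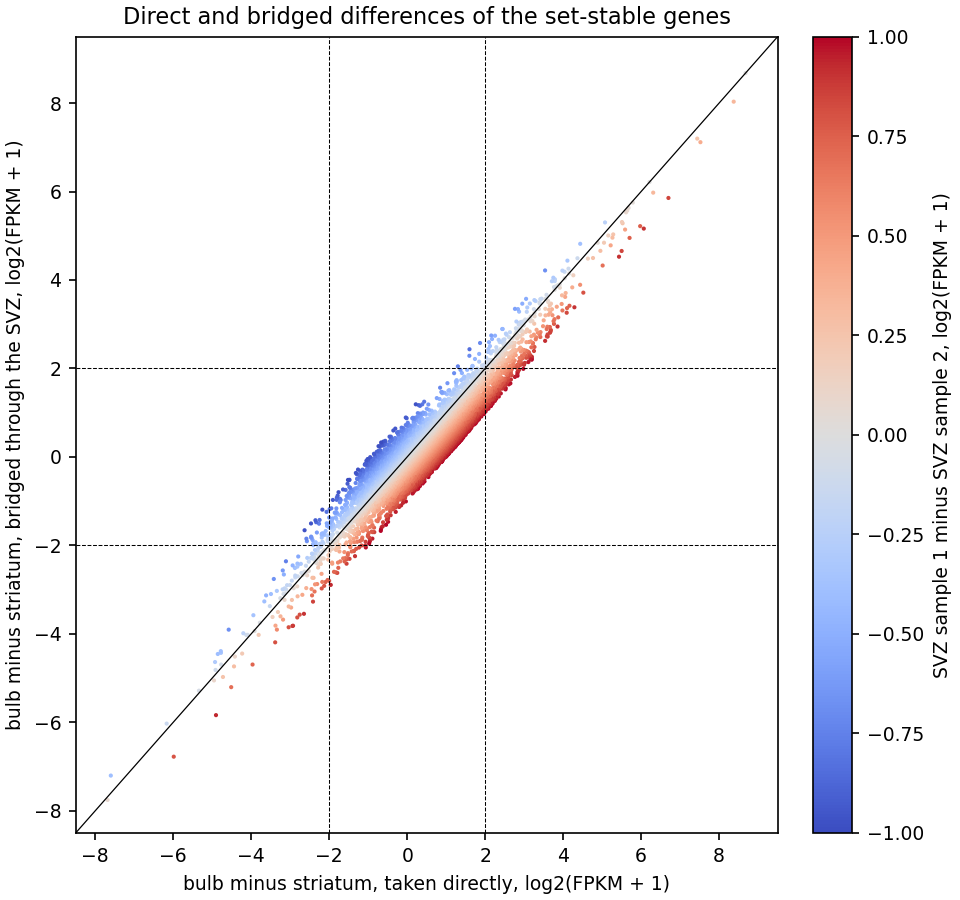
Bridged difference (vertical axis) against direct difference (horizontal axis) of OB and STR, both on log2(FPKM + 1), for the 11595 members, coloured by SVZ sample 1 minus SVZ sample 2. The axes share the OB and STR values, so the points must follow the diagonal within 1 unit, and points right of the dashed line at 2 but under the dashed line across are the 247 OB-high genes that lose the call when bridged.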

How the data were processed

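FPKM values of 37142 transcripts in 5 libraries were deposited by the authors. CASAVA, TopHat 1.2.0, Cufflinks 1.0.0 and the build mm9 are named without a role, per the submitters' processing notes. Between 22.6% and 33.9% of low values lay within 0.1 of a whole multiple of the best step per library, so read counts were not recovered, the depth is unknown and no counting interval is given.

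The 25975 coding transcripts (RefSeq NM accessions, not long noncoding) were summed by symbol to 20340 genes. Of the members, 20 carry a whole number in place of a symbol and were kept unnamed. Groups followed the labels. Differences were taken on log2(FPKM + 1) with Python 3.11.15 and pandas 2.3.3, and the code was tested on simulated data. No test was run, because OB and STR have 1 sample each. The members and 41 lists (798 genes) were chosen with earlier results of these data known.

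Named genes were the 20 largest differences each way at 5 FPKM or more, the first 3, the 4 largest each way and the called members of each list, and 2 genes on each side of the thresholds among called genes. Others were chosen after their values were seen. Some genes taken by the rule are not reported here. Loci are those of the deposited table on mm9, counted from 1. GENCODE M21 on GRCm38 gave GC content (99.1% of members matched) and strands, RefSeq the upstream windows on GRCm38.p6. Alternatives were bridging, other SVZ limits, pseudocounts and level filters, median-ratio scaling, the highest transcript per symbol, GC adjustment and leaving out genes listed at 0.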

Additional observations from a re-analysis of the deposited data

How the results depend on the processing

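Of 11595 members, 605 were OB-high and 174 STR-high, with a median difference of 0.44. OB-high counts moved by more than 1.5 times to 375 when bridged, 322 with an SVZ limit of 0.5 units, 1091 with a pseudocount of 0.1, 191 with a pseudocount of 5, 335 with median-ratio scaling and 263 after GC adjustment. STR-high counts moved to 272 without the SVZ limit, 277 with a pseudocount of 0.1, 91 with a pseudocount of 5, 315 with median-ratio scaling and 272 after GC adjustment. The median became 0.17 when bridged, 0.23 with the limit of 0.5, 0.0838 with no filter on low values and -0.0901 with median-ratio scaling. GC adjustment and leaving out genes listed at 0 were chosen after seeing the data. The cause of these moves was not tested. The 40 genes named for the largest differences, which were chosen for sizes of 4.20 or more, had sizes of 2.58 or more in the same direction in all 425 alternative values, and bridging could not have turned them. Leaving out an SVZ replicate could not be run, because the choice of genes needs both. No paired analysis was possible because OB, DG and STR have 1 sample each and only the SVZ samples carry replicate numbers. Depth is unknown, so values under 1 FPKM and genes listed at 0 have no stated precision.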

Other observations

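Families defined by the start of the gene symbol were looked at after the values were seen, and are given as values. All 3 cerebellin members (Cbln1, Cbln2 and Cbln4), secreted proteins that organise synapses, were OB-high: Cbln1 was at 43.8 FPKM in OB, 1.17 in STR, 0.683 and 0.835 in the SVZ samples and 1.94 in DG. Lgr5 and Lgr6, receptors for R-spondins known as markers of epithelial stem cells, were at 35.8 and 32.2 FPKM in OB and 1.09 and 0.222 in STR, with bridged differences of 4.26 and 4.50. The SVZ samples, where neural stem cells reside, had Lgr5 at 0.690 and 0.835 FPKM. Zic1 and Zic2, zinc-finger factors, were at 59.3 and 22.8 FPKM in OB and 5.05 and 2.13 in STR. Of 24 collagen members 9 were OB-high and none STR-high, against 5.22% and 1.50% of all members. Among the 9 were Col23a1 (19.6 against 0.656 FPKM), Col24a1 (11 against 0.336 FPKM) and Col1a1 of the meningeal list. Col18a1, Col4a1 and Col5a2 dropped to 1.68, 1.31 and 1.30 when bridged, and the other OB-high collagens stayed past 2 units.

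On the STR side, 7 of 16 members named Rgs were STR-high, against 1.50% of all members, and 1, Rgs12, was OB-high. Rgs12 went from 2.52 to 1.63 and Rgs2 from -2.63 to -1.66 when bridged. The intracellular calcium release channels differed by gene: Itpr1 was at 259 FPKM in STR and 31.4 in OB, and Itpr3 at 0.641 and 10.6. Calcineurin did likewise, with the catalytic subunit Ppp3ca at 834 FPKM in STR and 174 in OB, and Ppp3cc at 5.26 and 28.5, where the Ppp3cc difference of 2.24 became 1.85 when bridged. Htr2c, a serotonin receptor, was at 19.7 FPKM in STR and 1.29 in OB, and Htr3a, a serotonin-gated channel, at 0.696 and 9.41. Large families of general function held few called genes or none. Of 308 Zfp members 3 were OB-high and 1 STR-high, and none was called of 47 Eif, 61 Rnf and 32 Psm members (Psma to Psmd only). Psme1, outside that count, was OB-high at 42.2 against 9.45 FPKM (2.05, bridged 1.17).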
